A study of Rattus norvegicus with 21 samples.

Results

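The solute carriers are the membrane transporters whose gene symbols begin with Slc and a family number. All probes with such a symbol in the platform annotation were taken, apart from 1 bicarbonate transporter left out by the rule, and no measured value entered the choice. This gave 129 of the 5376 probes on the array, for 127 of 4153 named genes, in 37 families. Slc14a2 and Slc4a1 had 2 probes each, which were kept apart. The largest family was Slc6 with 14 probes, followed by Slc22 with 10 and Slc25 with 8. Of the 129 probes, 128 had a value on at least 1 array and 40 had one on all 21 arrays. The probe of Slc22a7, an organic anion transporter, had none.

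Solute carriers move amino acids, sugars, ions, transmitters, nucleotides and vitamins across membranes, most of them driven by a gradient of sodium, protons or the substrate itself. In the spinal cord, astrocytes clear glutamate and GABA from the synapse through members of Slc1 and Slc6. Neurons load these and other transmitters into vesicles through Slc17, Slc18 and Slc32. Mitochondrial members of Slc25 exchange ATP, phosphate and metabolites with the cytosol, while Slc2, Slc16 and Slc38 carry glucose, lactate and glutamine into cells.

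The samples were total RNA of rat spinal cord, compared on 21 2-colour arrays with a reference RNA on each. The title of the series names anti-inflammatory compounds in spinal cord injury. There were 7 groups of 3 arrays: freshly dissected cord (Uninjured), cord cultured for 4 hr with PBS (Injured 4 hr), and 4 hr cultures given CKIN, MP, acetaminophen (Acet), indomethacin (Indo) or NS398. The Uninjured and Injured 4 hr arrays carried a pool of PBS-treated 4 hr cultures as reference. The titles of the CKIN, MP and Acet arrays also name PBS-treated 4 hr cultures, but without the word pooled. This reference, also called the PBS pool below, cancels against Injured 4 hr only if it is the same pool. Indo was set against ethanol-treated and NS398 against DMSO-treated cultures, in each case the vehicle of the compound. CKIN and MP are not spelled out by the submitters, and background knowledge reads them as cytokine inhibitors and methylprednisolone. Indomethacin blocks both cyclooxygenases and NS398 mainly cyclooxygenase 2, while acetaminophen is an analgesic. All groups but Uninjured had been kept in culture, so the comparison of Injured 4 hr with Uninjured holds the injury of the group's name, time and culture together. The labels give no strain, sex, age or dose.

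Each value below is a centred log2 ratio: the log2 of sample over reference, minus the median of all probes on that array. That the first RNA of a title is the numerator is likely but not stated. Probes measured per array ran from 3092 to 4916, and solute carrier probes from 124 to 128 on the Uninjured and Injured 4 hr arrays but from 71 to 127 on the treatment arrays. Values that are exact ratios of whole numbers up to 20 made up 0.781% to 2.36% of the solute carrier values on the first 6 arrays and 6.3% to 17.2% on the 15 treatment arrays. The spread of the solute carrier values also differed, with SDs of 1.33 to 1.39 on the Uninjured arrays and 0.63 to 0.68 on the Injured 4 hr arrays. Since this wider spread touches every injury result, those results are also given in corrected ratios, in which the dependence of each array on the mean Injured 4 hr ratio (a stand-in for brightness) and on the source plate was removed.

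Promoters of 4 genes are shown here because results turn on them: Slc5a7 and Slc6a11 were called between culture and fresh cord in both kinds of ratio, Slc38a1 was called with both indomethacin and NS398, and Slc18a3 completes the pair that handles acetylcholine. RefSeq promoter sequences were matched for 107 of the 127 genes. The 250 bases before the annotated start are printed 5′ to 3′ on the gene's strand, from assembly GRCr8. Over all promoters checked, the start of the gene annotation lay 1 base past these bases for 19339 of 33469. Slc5a7, which takes choline back into cholinergic terminals, lies at chr9:7953510-7953759 on the minus strand. Slc18a3, which loads acetylcholine into vesicles, lies at chr16:7722815-7723064 on the minus strand. Slc6a11, the astrocyte GABA transporter, lies at chr4:148853307-148853556 on the plus strand, and Slc38a1, a carrier of glutamine and other neutral amino acids, at chr7:129681402-129681651 on the minus strand. Capitals mark matches to a TATA box (TATAAA), a GC box (GGGCGG, or CCGCCC when on the other strand), a CCAAT box (CCAAT) and an amino acid response element (TGATGCAA), searched on both strands.
Slc5a7: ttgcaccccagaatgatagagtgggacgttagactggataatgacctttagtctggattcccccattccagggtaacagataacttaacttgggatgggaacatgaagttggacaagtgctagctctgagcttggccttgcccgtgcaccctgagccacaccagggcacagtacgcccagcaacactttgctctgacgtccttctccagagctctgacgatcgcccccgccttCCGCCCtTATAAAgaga
Slc18a3: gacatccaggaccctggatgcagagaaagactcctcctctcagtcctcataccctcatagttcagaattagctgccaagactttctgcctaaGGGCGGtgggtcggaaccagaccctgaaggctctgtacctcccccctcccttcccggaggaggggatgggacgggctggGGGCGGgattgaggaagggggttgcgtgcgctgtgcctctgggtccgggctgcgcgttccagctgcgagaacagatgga
Slc6a11: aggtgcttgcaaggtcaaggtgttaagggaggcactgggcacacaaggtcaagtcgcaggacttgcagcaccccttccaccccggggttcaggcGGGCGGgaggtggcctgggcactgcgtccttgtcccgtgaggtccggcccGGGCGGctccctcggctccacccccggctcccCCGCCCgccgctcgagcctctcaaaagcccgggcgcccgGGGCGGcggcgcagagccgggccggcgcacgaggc
Slc38a1: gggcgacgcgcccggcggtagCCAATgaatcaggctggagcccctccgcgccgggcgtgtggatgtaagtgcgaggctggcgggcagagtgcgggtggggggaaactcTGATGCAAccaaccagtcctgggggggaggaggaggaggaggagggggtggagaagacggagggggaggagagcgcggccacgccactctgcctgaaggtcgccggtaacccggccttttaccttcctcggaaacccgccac
The GC box was found 4 times before Slc6a11, 2 times before Slc18a3 and 1 time before Slc5a7. It occurred in 48.6% of the 107 solute carrier promoters and in 32.4% of the 27457 promoters of the same length, and the median GC content of these 2 sets was 61.2% and 52%. The amino acid response element stood at positions -142 to -135 from the start of Slc38a1, in 1 of the 107 solute carrier promoters and in 0.656% of all. None of these matches is shown to be a bound site.

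The first comparison asked which solute carriers differ between fresh cord and cord cultured for 4 hr. In centred ratios 23 of the 127 probes tested fell and none rose at an adjusted p under 0.05 in limma, with 36 probes at an unadjusted p under 0.05. They included transporters that handle glutamate, GABA, glycine and acetylcholine and 5 mitochondrial carriers. The 23 were 18.1% of the solute carrier probes tested, beside 13.5% of all 4821 probes called lower and 0.809% called higher. The median change was 0.00 over the solute carrier probes and -0.05 over all probes, with quartiles of -0.88 and 0.34 among the solute carriers. The groups did not overlap for any of the 23, which was also so for 60 of the 127 members (47.2%) and 54% of all probes tested. In bulk RNA, fewer cells of a type and less RNA per cell cannot be told apart.

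These calls depended on the scaling. Of the 23 probes, 21 lay at or above the 50th percentile of the brightness stand-in, where 58 of the 127 tested probes lay. In the deposited ratios, without centring, 64 rose and none fell, where the median change of all probes was 1.47. No solute carrier probe was called after quantile or scale normalization, and 12 to 17 were called with 1 array left out, fewest without Injured 4 hr replicate 1. In corrected ratios 2 probes fell, Slc5a7 and Slc6a11, and 4 rose, beside 4.9% lower and 2.43% higher over all probes. Of the 23, 17 stayed below 0 in quantile, scaled and corrected values, and 6 were above 0 in at least 1 of these. The change relative to the array median is therefore what the values below give.

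**Figure D1:**
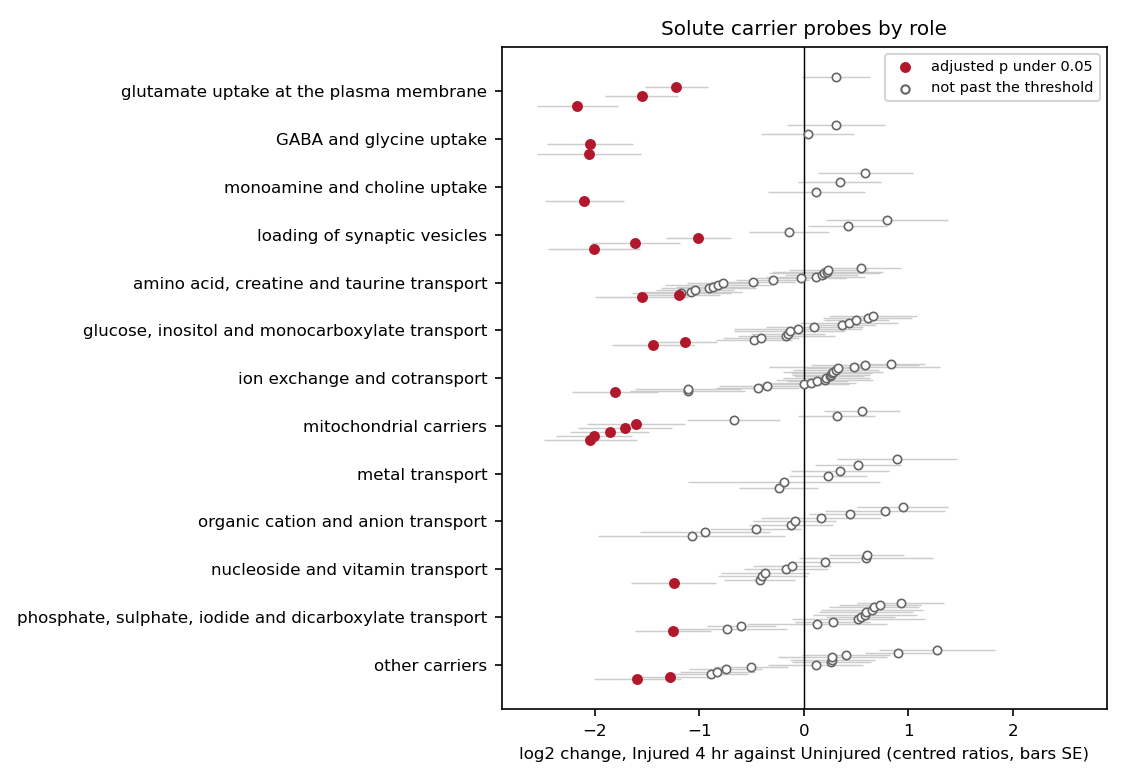
Log2 change of each solute carrier probe between Injured 4 hr and Uninjured arrays (x axis, centred ratios, bars are the standard error), grouped by role (y axis). Filled points passed an adjusted p of 0.05, all 23 of them to the left of 0, with 3 of 4 glutamate transporters and 5 of 8 mitochondrial carriers among them.

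The glutamate transporters of the plasma membrane fell, with 3 of 4 probes called. Slc1a3, the astrocyte transporter GLAST, had ratios of 3.32, 2.83 and 3.12 in Uninjured and of 0.71, 0.79 and 1.27 in Injured 4 hr. It changed by -2.17 ± 0.39 (SE, adjusted p = 0.000809, limma), the largest fall among the solute carriers in centred ratios. Every fresh cord array stood more than 1 unit above every culture array. Slc1a2, the astrocyte transporter GLT-1 that clears most synaptic glutamate, had ratios of 1.56, 1.97 and 2.02 in Uninjured and of 0.09 and 0.51 on the 2 Injured 4 hr arrays that measured it. Its change was -1.55 ± 0.35 (adjusted p = 0.00507, limma). Slc1a1, the neuronal transporter EAAC1, had ratios of 1.84, 1.58 and 1.76 against 0.39, 0.69 and 0.44, a change of -1.22 ± 0.30 (adjusted p = 0.00955, limma). All 3 kept the call in each omission of an array that left them testable. In corrected ratios they changed by -1.13, -0.89 and -0.37, and none passed, Slc1a3 missing the threshold at an adjusted p of 0.0506. The fourth, Slc1a6, which is best known from cerebellar Purkinje cells, changed by 0.31 ± 0.32 and did not pass.

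Of the 4 probes for GABA and glycine uptake, 2 fell. Slc6a11, the GABA transporter of astrocytes called GAT-3 in the rat, had ratios of 1.80, 2.89 and 1.20 in Uninjured and of -0.28, -0.38 and 0.42 in Injured 4 hr. Its change was -2.04 ± 0.41 in centred and -2.04 ± 0.39 in corrected ratios, with adjusted p-values of 0.00203 and 0.00263 in limma. The fresh arrays spread over more than 1 unit but none came down to the cultures. Slc6a9, the glycine transporter GlyT1 of glia, had ratios of 3.52, 3.68 and 3.78 against 1.81, 1.28 and 1.73, a change of -2.06 ± 0.50 (adjusted p = 0.00783, limma) that was -1.05 in corrected ratios and did not pass there. Its fresh and cultured arrays did not overlap. Slc6a5, the glycine transporter of inhibitory neurons, changed by 0.04 ± 0.44, and Slc6a13, a GABA transporter found mainly in the meninges, by 0.31 ± 0.47. Neither passed the test.

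The choline transporter Slc5a7 also fell in both kinds of ratio. Its ratios were 1.83, 1.87 and 2.37 in Uninjured and -0.59, 0.49 and -0.13 in Injured 4 hr. The change was -2.10 ± 0.38 in centred ratios and -2.20 ± 0.35 in corrected ratios, with adjusted p-values of 0.00096 and 0.000706 in limma. Fresh cord stood well above the Injured 4 hr arrays. The 14 treatment arrays that measured the probe lay at 0.57 or below. Among them the Indo and NS398 arrays have other references, so their ratios cannot be set against fresh cord. Under quantile and scale normalization the changes of Slc5a7 were -1.18 and -1.28, and those of Slc6a11 were -1.11 and -1.28. Neither passed there, with adjusted p-values from 0.199 to 0.611 in limma. With stand-in percentiles of 47.9 and 47.7 these were the lowest 2 of the 23 on the brightness stand-in. The vesicular acetylcholine transporter Slc18a3, whose gene sits inside that of choline acetyltransferase, had ratios of 0.97, 0.67 and 1.37 against -0.10, 0.10 and -0.02. It changed by -1.01 ± 0.31 (adjusted p = 0.0342, limma) and by -0.89 in corrected ratios, where its adjusted p was 0.0568, and 5 of the 6 omissions of an array lost its call.

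Among the 6 transporters that load synaptic vesicles, the glutamate carrier Slc17a6 and the GABA and glycine carrier Slc32a1 fell beside Slc18a3. Slc17a6 had ratios of 3.40 and 2.62 on 2 Uninjured arrays and of 0.86, 1.28 and 0.88 in Injured 4 hr, a change of -2.005 ± 0.44 (adjusted p = 0.00439, limma). Slc32a1 had ratios of 3.63, 3.12 and 3.03 against 1.24, 2.02 and 1.69, a change of -1.61 ± 0.42 (adjusted p = 0.0135, limma). Both transporters of spinal excitatory and inhibitory terminals were thus lower in every culture than in every fresh cord measured. In corrected ratios they changed by -1.19 and -0.62 and did not pass. The other glutamate carrier Slc17a7, and Slc18a1 and Slc18a2 for monoamines, lay below the array median on all 3 fresh arrays and changed by -0.14, 0.80 and 0.42 without passing. The plasma membrane transporters for noradrenaline (Slc6a2), dopamine (Slc6a3) and serotonin (Slc6a4) were also below the median on every fresh array and changed by 0.34, 0.12 and 0.59. None of these 3 passed.

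**Figure D2:**
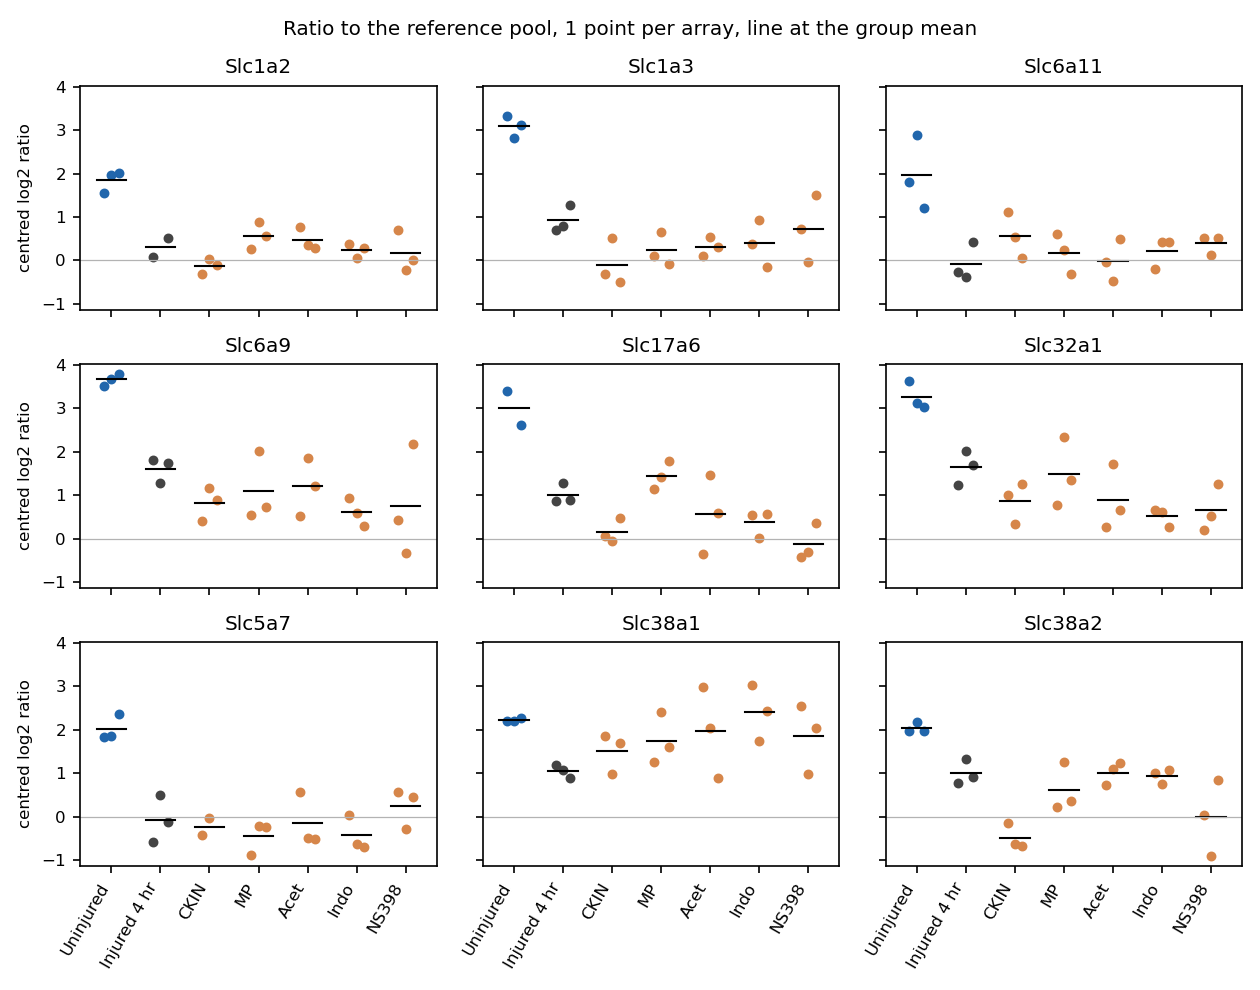
Centred log2 ratio to the reference (y axis) of 9 solute carrier probes on each array, by group (x axis), with a line at the group mean. The first 7 panels show fresh cord above all Injured 4 hr arrays, and the Slc38a1 panel shows every one of the 21 arrays above 0, up to 3.03 in an Indo array.

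Markers of cell types moved in the same comparison. Of 14 neuronal marker probes 10 fell, with a median change of -2.11, and 9 fell in corrected ratios. Their mean ratio was 3.45 to 3.82 on the Uninjured arrays and 1.62 to 1.64 on the Injured 4 hr arrays. Of 10 astrocyte marker probes 3 fell in centred and 3 in corrected ratios, the water channel Aqp4 by -3.55 ± 0.78 and -2.86 among them, and the mean ratio was 2.54 to 2.74 against 1.26 to 1.30. Of 8 oligodendrocyte probes 1 fell, and the mean ratio of this list was 2.78 to 3.03 against 1.77 to 1.88. The mean of the connective tissue list was 0.958 to 1.17 against 0.244 to 0.522. None of the Schwann cell, microglia, endothelial, blood or connective tissue probes was called, while 2 microglia and 1 endothelial probe rose in corrected ratios. The part of these cell types in the fall of neuronal and astrocyte transporters was not tested.

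Mitochondrial carriers formed the other large group, with 5 of 8 Slc25 probes lower and a median change of -1.66. The ADP/ATP carriers Slc25a4 and Slc25a5 exchange ATP made in mitochondria for cytosolic ADP. Slc25a4 had ratios of 3.98, 4.19 and 3.48 in Uninjured and of 2.19, 1.54 and 1.91 in Injured 4 hr, a change of -2.01 ± 0.37 (adjusted p = 0.0038, limma). Slc25a5 had ratios of 3.04, 3.52 and 3.03 against 1.21, 1.40 and 0.86, a change of -2.04 ± 0.45 (adjusted p = 0.00392, limma). Both were far above the array median in fresh cord, and Slc25a4 was the member with the highest brightness stand-in of the 23, at percentile 96.0. The malate carrier Slc25a11 changed by -1.86 ± 0.38, the phosphate carrier Slc25a3 by -1.71 ± 0.45 and the carnitine carrier Slc25a20 by -1.60 ± 0.47. In corrected ratios the 5 changed by -0.61 to -1.09 and none passed. Under scale normalization Slc25a4 changed by 0.21 and Slc25a3 by 0.36, the opposite sign. The citrate carrier Slc25a1, the dicarboxylate carrier Slc25a10 and Slc25a16 changed by 0.55, -0.67 and 0.31 and were not called. Slc25a4 was measured on all 6 Uninjured and Injured 4 hr arrays and on none of the 15 treatment arrays, as were 15 spots of the whole array.

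Amino acid carriers had a median change of -0.63, beside 0.06 in corrected ratios. Of 18 amino acid, creatine and taurine transporters tested, 2 fell: Slc6a15, a neutral amino acid carrier of neurons, by -1.55 ± 0.45 and Slc3a2, the heavy chain that partners several Slc7 carriers, by -1.20 ± 0.39. The call of Slc3a2 was lost with any array left out, and its corrected change was 0.01. The Slc7 partners of Slc3a2 included Slc7a5, which had ratios of 0.74, 1.67 and 0.24 in Uninjured and of 0.31, 0.31 and 0.56 in Injured 4 hr, groups that overlapped. The taurine transporter Slc6a6, the creatine transporter Slc6a8 and the arginine transporter Slc7a1 changed by -0.82, -0.77 and -0.87 and did not pass. Slc38a1, Slc38a2 and Slc38a3, which carry glutamine and other small neutral amino acids, changed by -1.17, -1.04 and -1.08. Each had an unadjusted p under 0.05 and none passed after adjustment.

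Of 14 sugar, inositol and monocarboxylate carriers 2 fell. Slc16a1, which carries lactate and ketone bodies, had ratios of 1.28, 1.50 and 2.30 against 0.10, 0.35 and 0.31, a change of -1.44 ± 0.39 (adjusted p = 0.0163, limma). The inositol carrier Slc5a11 changed by -1.14 ± 0.31 (adjusted p = 0.0176, limma). The glucose transporter Slc2a1 of the blood-brain barrier, in contrast, had ratios of 1.37, 2.11 and 1.58 in Uninjured and of 1.49, 1.55 and 1.51 in Injured 4 hr. These overlapped, and the change of -0.17 ± 0.46 did not pass. None of the 5 Slc2 probes was called, the neuronal glucose transporter Slc2a3 changing by -0.05 ± 0.61.

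Of 19 ion exchangers and cotransporters only Slc24a2 fell, a neuronal exchanger of sodium for calcium and potassium. Its ratios were 2.63, 2.13 and 2.27 against 0.45, 0.50 and 0.67, a change of -1.81 ± 0.41 (adjusted p = 0.00567, limma). The 2 chloride transporters that set the chloride level of neurons were lower in each measured culture but not called: Slc12a5, which exports chloride, had ratios of 3.22, 2.95 and 2.74 against 1.44, 2.20 and 1.94, and Slc12a2, which imports it, 2.59 and 2.48 against 1.23, 1.25 and 1.80. Their changes of -1.11 ± 0.51 and -1.11 ± 0.55 had adjusted p-values of 0.149 and 0.187 in limma. The sodium-calcium exchangers Slc8a1, Slc8a2 and Slc8a3 changed by 0.20, 0.00 and 0.07. All 3 lay below the median on each of the 6 arrays.

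The remaining calls were carriers of phosphate, peptides, urea and choline. The phosphate carrier Slc20a1 changed by -1.25 ± 0.37, the peptide carrier Slc15a2 by -1.59 ± 0.42, the urea transporter Slc14a1 by -1.28 ± 0.37 and the choline carrier Slc44a1 by -1.24 ± 0.41. Slc15a2 narrowly missed the threshold in corrected ratios, with -1.32 and an adjusted p of 0.0507 in limma. None of the 6 metal transporters and none of the 9 organic cation and anion transporters tested was called. On single arrays, the organic cation transporter Slc22a2 stood at 4.13 on Uninjured replicate 2 beside -0.84 and -0.68, and the phosphate carrier Slc20a2 at -0.22 there beside 2.54 and 2.39. Neither probe was called.

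The 4 members called higher in corrected ratios were not called in centred ones. Slc27a2, which activates and imports very long chain fatty acids, had centred ratios of -1.01, -0.60 and -0.27 in Uninjured and of 0.31, 0.43 and 0.10 in Injured 4 hr, groups that did not overlap. Its change was 0.90 ± 0.32 centred and 1.55 ± 0.28 corrected, with adjusted p-values of 0.0708 and 0.00331 in limma. Slc4a7, a sodium bicarbonate cotransporter, had centred ratios of -0.76, -0.72 and -0.34 against 0.13, 0.07 and 0.48, and changed by 0.83 centred and 1.27 corrected. For both, every culture array stood above every fresh array in centred ratios. For the sodium-proton exchanger Slc9a5 and the anion exchanger Slc4a2 the corrected changes were 1.19 and 0.90, but the centred ones were 0.27 and 0.13. These 4, and Slc15a2, Slc6a15, Slc5a11, Slc14a1 and Slc44a1 above, were named after their values were seen.

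**Figure D3:**
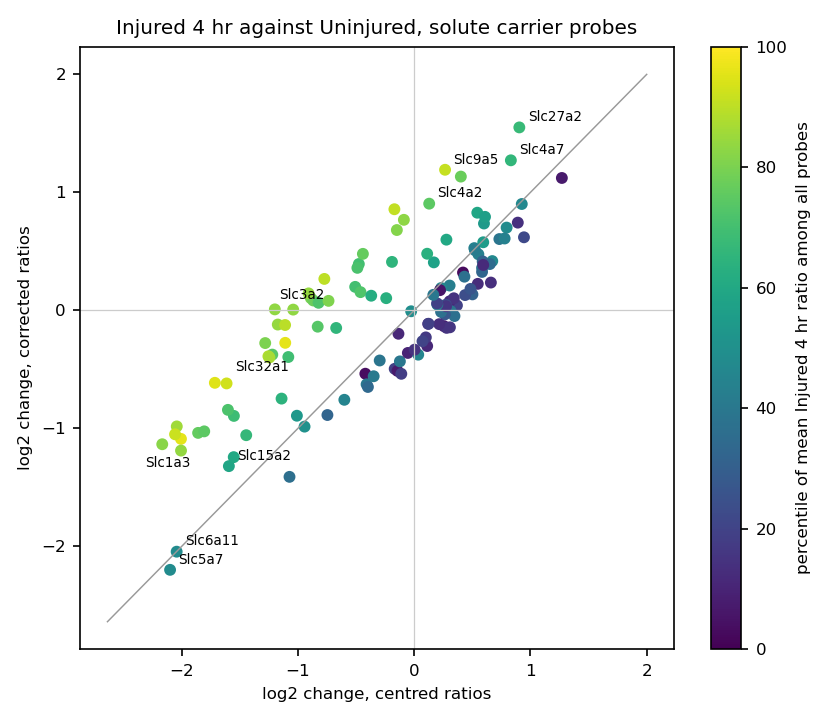
Change between Injured 4 hr and Uninjured of each solute carrier probe in centred (x axis) and corrected ratios (y axis), log2, coloured by the percentile of the mean Injured 4 hr ratio, with a line of equality. Probes of high percentile lie above the line, while Slc5a7 at -2.10 and -2.20 and Slc6a11 at -2.04 and -2.04 lie close to it. The correction is built on the same mean ratio, so the place of a probe beside the line follows in part from its percentile.

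Other transport and transmitter genes of the same comparison were taken from fixed lists. Of 18 probes for transmitter enzymes 5 fell, Got1 by -2.60 ± 0.35 and 1 probe of the GABA-producing Gad1 by -1.21 ± 0.34 among them, and 1 fell in corrected ratios. The other Gad1 probe changed by -1.19 ± 0.51 and did not pass. Of 12 probes for sodium-potassium and calcium pumps 4 fell, and all 4 probes for the vacuolar proton pump that energises vesicle loading fell, with a median of -1.56. In corrected ratios 1 of each fell. Of 13 ABC transporters 1 fell, and none of the 8 organic anion transporters of the Slco family did.

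The CKIN comparison asked which carriers differ between treated and PBS cultures. Of 94 solute carrier probes tested 9 fell and none rose, 9.57% beside 18.6% of all 3735 probes called lower and 1.47% called higher. The share of members called was thus below that of all probes. The median change was -0.15 over the members and -0.38 over all probes. The groups did not overlap for the 9, nor for 34 of the 94 members (36.2%) and 48.4% of all probes tested. In corrected ratios only Slc24a2 fell, beside 0.402% of all probes. With the 10 arrays of more than 1100 missing spots as a block, which holds all CKIN arrays and no Injured 4 hr array, none of the 9 was called. With CKIN 3 of 14 neuronal, 4 of 10 astrocyte and 5 of 8 oligodendrocyte marker probes were lower too. So were the microglia markers C1qb and Cx3cr1, the endothelial marker Cldn5 and the connective tissue marker Col1a2. None of these marker probes was called in corrected ratios. The part of these cell types in the falls of the carriers was not tested.

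Slc24a2 had ratios of -2.56 and -1.12 on 2 CKIN arrays and of 0.45, 0.50 and 0.67 in Injured 4 hr. The change was -2.38 ± 0.46 centred and -2.14 corrected, with adjusted p-values of 0.00409 and 0.0412 in limma. Both measured CKIN arrays were below every PBS culture, though 1 unit apart. Among carriers of fuel and amino acids, Slc38a2, a glutamine and alanine carrier, had ratios of -0.14, -0.63 and -0.67 against 0.77, 1.31 and 0.90, a change of -1.48 ± 0.38 (adjusted p = 0.0137, limma). Slc2a1 had ratios of 0.39, -0.53 and -0.55 against 1.49, 1.55 and 1.51, a change of -1.75 ± 0.46 (adjusted p = 0.0157, limma) whose call was lost in 3 of 6 omissions, without Injured 4 hr replicate 2 or 3 or CKIN replicate 3. In corrected ratios Slc38a2 and Slc2a1 changed by -0.82 and -0.67 and did not pass. Slc1a5, another glutamine carrier, changed by -2.01 ± 0.51 on 2 CKIN arrays that differed by more than 1 unit (-0.04 and -1.90). These carriers, above the array median in every PBS culture, were near or below it with CKIN.

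The other calls with CKIN were Slc9a5 at -1.68 ± 0.39, Slc12a5 at -1.45 ± 0.50, Slc37a4, which brings glucose 6-phosphate into the endoplasmic reticulum, at -1.36 ± 0.41, Slc25a3 at -1.34 ± 0.45 and Slc6a8 at -0.995 ± 0.35. In corrected ratios Slc9a5 changed by -0.48, Slc12a5 by -0.24, Slc25a3 by 0.15 and Slc6a8 by 0.03. When the CKIN ratios over the PBS pool were tested by themselves, 2 of the 9 calls held and 4 kept only the direction. The other 3, Slc12a5, Slc6a8 and Slc25a3, turned to the opposite sign. Leaving out 1 array left 3 to 7 members called, the lowest without Injured 4 hr replicate 2, and Slc25a3 was lost with any array left out.

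Against the same PBS cultures no member was called with MP, of 115 tested, or with Acet, of 124 tested. The background was 2% lower and 0.0456% higher over 4390 probes for MP, and 1.2% lower and 0.106% higher over 4733 probes for Acet. At an unadjusted p under 0.05 there were 5 members with MP and 7 with Acet in limma, and 3 members were called with MP when MP replicate 2 was left out. The smallest adjusted p with MP was 0.0809, for Slc9a5, with ratios of 0.13, 1.08 and -0.46 against 1.53, 1.39 and 1.67 and a difference of -1.28 ± 0.39. With Acet it was 0.0938, for the glucose transporter Slc2a2 of liver and pancreas, with ratios of 1.31, 0.57 and 0.26 against -0.48, -0.35 and -0.28 and a difference of 1.08 ± 0.32. The same probe had ratios of 0.94, 0.56 and 0.17 with MP and of 0.54, 0.39 and 0.62 with CKIN. It stood above 0 on all 9 of these arrays and below 0 on the 3 PBS arrays they share. Slc2a2 was not called in any comparison and was named after its values were seen. It lay at percentile 19.5 of the brightness stand-in. The treatment arrays and the PBS arrays also differ in their share of exact whole-number ratios. All 3 treatments use the same 3 Injured 4 hr arrays, so their values are not independent of each other.

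For indomethacin and NS398 the ratio over the vehicle pool was itself the measure, tested against 0, since no single ethanol or DMSO culture is among the samples. The pool then counts as 1 control whose spread is not in the test. The same test on the Injured 4 hr arrays, which set PBS cultures against a PBS pool, called 22 of 128 solute carrier probes higher, 17.2% beside 20.9% of all 4864 probes, and none lower beside 1.09%. In corrected ratios it called none, as the correction is built on those arrays. A ratio above 0 in centred values therefore also occurs between like RNAs, and Injured 4 hr values are given beside each result.

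With indomethacin 4 of 98 solute carrier probes were higher than the ethanol pool and 1 was lower, 4.08% and 1.02% beside 2.6% and 10.7% of all 3802 probes. In corrected ratios 2 were higher and 1 lower, beside 3.41% and 6.37% of all probes. The median was 0.25 over the members and 0.02 over all probes. On the Indo arrays the mean was 0.278 to 0.412 for neuronal, -0.0681 to 0.282 for astrocyte and 0.141 to 0.316 for oligodendrocyte markers. On the Injured 4 hr arrays, with another reference, these means were 1.62 to 1.64, 1.26 to 1.30 and 1.77 to 1.88. The part of these cell types in the calls was not tested. Slc38a1 had ratios of 3.03, 1.74 and 2.44, a mean of 2.40 ± 0.33 (SE, adjusted p = 3.93e-05, limma), and 1.93 in corrected ratios with an adjusted p of 0.00148. All 3 arrays stood above the Injured 4 hr ratios of 1.19, 1.06 and 0.88. Against those arrays the difference of Slc38a1 was 1.36 with an adjusted p of 0.0519 in limma, so that the call was lost there. Slc38a2 of the same family had ratios of 1.00, 0.76 and 1.07, which overlap with 0.77, 1.31 and 0.90 in Injured 4 hr. Its mean of 0.94 ± 0.27 passed against 0 (adjusted p = 0.0195, limma), while its corrected ratio of 0.48 did not.

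The lactate carrier Slc16a1 was also higher with indomethacin, with ratios of 0.27, 2.16 and 0.85, a mean of 1.10 ± 0.28 (adjusted p = 0.00863, limma) and a corrected 0.93 that passed. The middle array was far above the others, and without Indo replicate 2 the adjusted p was 0.247. Slc1a1 had ratios of 0.92, 1.07 and 0.63, a mean of 0.87 ± 0.22 (adjusted p = 0.00797, limma), against 0.39, 0.69 and 0.44 in Injured 4 hr. The call of Slc1a1 was lost in corrected ratios (0.55), against the Injured 4 hr arrays (0.37), and without Indo replicate 1 or 2. The insulin-regulated glucose transporter Slc2a4 was the only member called lower, on 2 arrays with ratios of -4.17 and -1.06 and a mean of -2.62 ± 0.46 (adjusted p = 0.00052, limma). Both arrays were below the Injured 4 hr values of -0.49, -0.38 and -0.52, but they differed from each other by more than 3 units. Against those arrays the difference of Slc2a4 was -2.15 and was called (adjusted p = 0.025, limma).

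With NS398 8 of 113 probes were higher than the DMSO pool and 5 were lower, 7.08% and 4.42% beside 10.7% and 11.3% of all 4485 probes. Both shares were below those of all probes. In corrected ratios 2 were higher and 4 lower, beside 5.06% and 7.99%, with the bile acid transporter Slc10a1 (1.03) and Slc38a2 (-0.75) called only there. The mean of the Schwann cell markers was 1.29 to 1.39 and that of connective tissue markers 0.995 to 1.38 on the NS398 arrays, against 0.305 to 0.662 and 0.244 to 0.522 on the Injured 4 hr arrays. The ratios of the neuronal (-0.293 to 0.929) and oligodendrocyte lists (-0.267 to 1.39) were lower than those in Injured 4 hr (1.62 to 1.64 and 1.77 to 1.88). For the astrocyte list, 0.311 to 1.34 overlapped with 1.26 to 1.30. The Injured 4 hr arrays have another reference, so these means do not give a change with NS398. Over the DMSO pool the neuronal Nefl (1.51) and the oligodendrocyte Mbp (1.125) and Mog (1.24) were called higher. No probe of these 2 lists was called lower, and none was called in corrected ratios. The part of these cell types in these calls was not tested. Slc38a1 was again among the highest, with ratios of 2.55, 0.98 and 2.03, a mean of 1.85 ± 0.34 (adjusted p = 0.00057, limma) and a corrected 1.08 (adjusted p = 0.041, limma). Here 1 of the 3 arrays lay within the Injured 4 hr range, and against those arrays the difference of 0.81 was not called. Slc9a5 had ratios of 0.92, 1.67 and 1.66 and Slc2a1 of 0.50, 1.83 and 1.84, which overlap with 1.53, 1.39 and 1.67 and with 1.49, 1.55 and 1.51 in Injured 4 hr. The other higher calls, Slc20a1 at 0.95, Slc25a3 at 0.90, the fructose transporter Slc2a5 at 0.84 and the sulphate transporter Slc13a1 at 0.84, did not pass in corrected ratios. The zinc exporter Slc30a1 had a mean of 2.23 from ratios of 4.85 and -0.39 on 2 arrays, of opposite sign, which is not read as a rise.

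Of the 5 lower calls with NS398 3 also passed in corrected ratios, as did 1 of the 8 higher calls. Slc29a1, the equilibrative transporter of adenosine and other nucleosides, had ratios of -1.24, -0.96 and -2.37, a mean of -1.52 ± 0.30 (adjusted p = 0.00151, limma) and a corrected -1.30. All 3 lay below the Injured 4 hr ratios of -0.09, -0.08 and -0.50, and the call was kept whichever NS398 array was left out. Against the Injured 4 hr arrays the difference of -1.30 was not called (adjusted p = 0.0939, limma). Slc8a1, the exchanger that removes calcium from cells in return for sodium, had ratios of -3.62 and -1.82 on 2 arrays, a mean of -2.72 ± 0.40 (adjusted p = 0.000286, limma) and a corrected -2.35. It was also the 1 member called against the Injured 4 hr arrays, at -2.60 with an adjusted p of 0.0183 in limma. Its ratios were -0.66 or lower on all 5 arrays of CKIN, MP and Acet that measured it, and no Indo array did.

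Slc23a2, which carries vitamin C into neurons and other cells, had ratios of -1.44 and -1.31 on 2 NS398 arrays, a mean of -1.38 ± 0.30 (adjusted p = 0.00272, limma) and a corrected -0.80. The Injured 4 hr ratios of -0.79, -0.10 and -1.09 came close to it, and the difference from those arrays was -0.71 and not called. Slc24a1, an exchanger known from rod photoreceptors, and the thiazide-sensitive cotransporter Slc12a3 of kidney had means of -1.48 and -1.07, each resting on 1 low array (-2.80 and -2.29). Without NS398 replicate 3 Slc12a3 was not called (adjusted p = 0.379, limma). In all, 6 members were called without NS398 replicate 3 and 17 without NS398 replicate 1, which had more than 1100 missing spots.

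**Figure D4:**
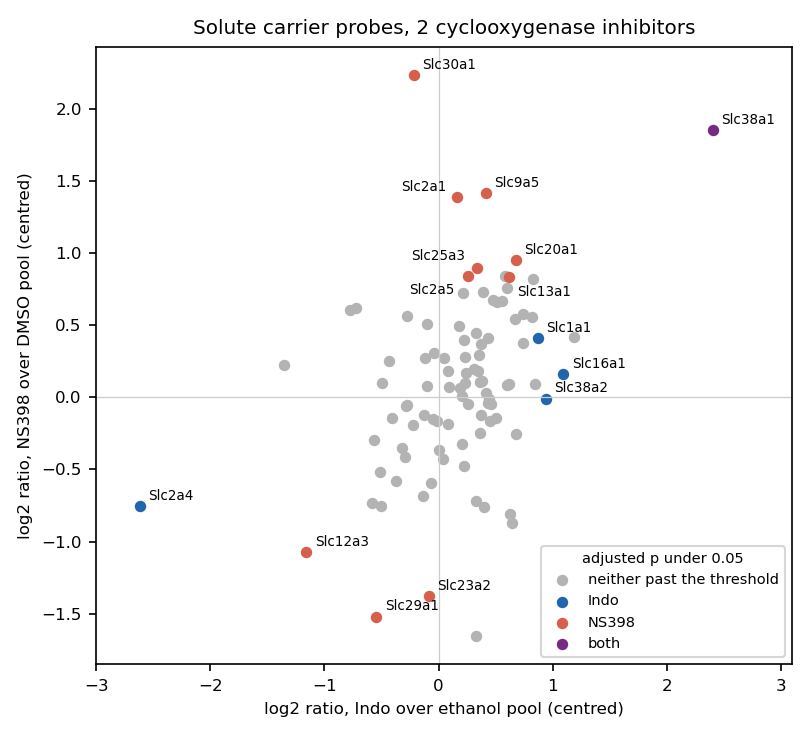
Mean centred log2 ratio of the 95 solute carrier probes tested with both compounds, indomethacin over the ethanol pool (x axis) and NS398 over the DMSO pool (y axis), coloured by which passed an adjusted p of 0.05. Slc38a1, at 2.40 and 1.85, is the only member that passed with both.

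Over the 95 members tested with both compounds the ratios had the same sign for 64, or 67.4%. Pearson's r across these probes was 0.38 and Spearman's rho 0.36, beside an r of 0.64 over 3680 probes, and r was 0.0996 in corrected ratios. The probes share the array layout and the treatment arrays share their pattern of missing spots, and probes are not independent replicates, so these values only describe the arrays. Slc38a1 was high in other groups too: its mean ratio was 1.51 in CKIN, 1.75 in MP, 1.97 in Acet and 2.22 in Uninjured beside 1.04 in Injured 4 hr. The Injured 4 hr arrays overlapped with those of CKIN, Acet and NS398, while the Uninjured, MP and Indo arrays all lay above them. The 5 treatments overlapped among themselves. The change of Slc38a1 between Injured 4 hr and Uninjured was -1.17 ± 0.47 and did not pass (adjusted p = 0.101, limma).

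Setting each compound against the mean of the other 4 treatments asks what is particular to it among the treatment arrays. Of 83 members tested, none was called for CKIN, MP, Acet or Indo, at a background of 0.589%, 0.031%, 0.124% and 0% of 3226 probes in either direction. For NS398 Slc23a2 was lower by 1.25 ± 0.33 (adjusted p = 0.0449, limma) beside 0.992% of all probes called lower and 1.46% higher, and it was -1.17 in corrected ratios with an adjusted p of 0.0144. The call was lost after quantile and scale normalization, with either block, and with only the compared groups in the fit. Both NS398 arrays lay below all 11 measured arrays of the other treatments, which ran from -0.61 to 0.42. Compounds could not be compared at matched doses, since no dose is given, and their vehicles differ.

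**Figure D5:**
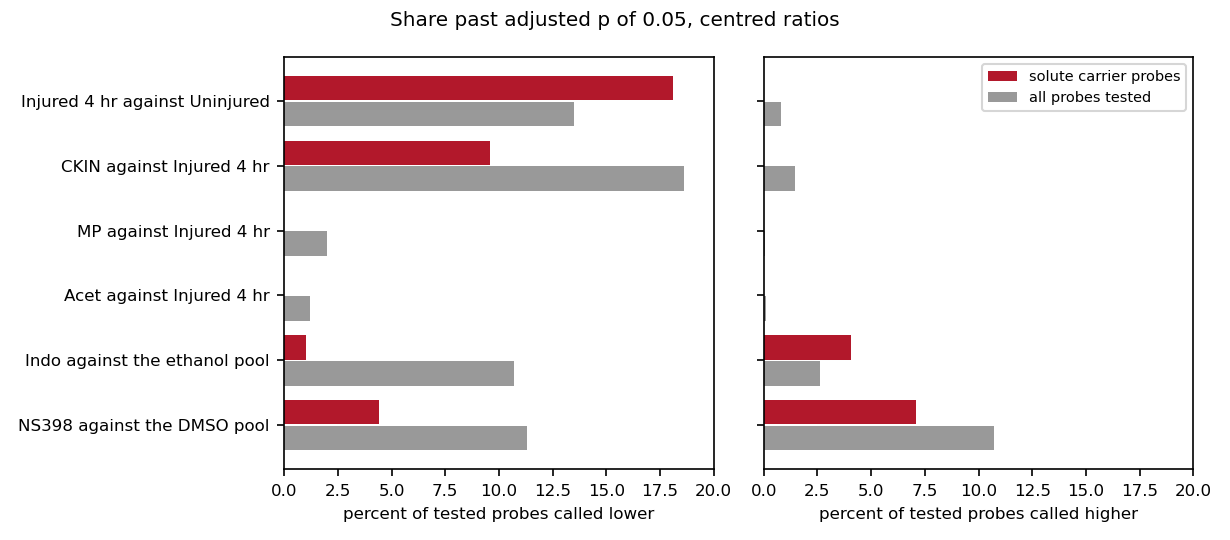
Percent of the tested solute carrier probes and of all tested probes called lower (left) or higher (right) at an adjusted p of 0.05 in each of the 6 comparisons drawn, centred ratios. Among these the solute carrier share was above that of all probes in 2 cases, lower in Injured 4 hr (18.1% and 13.5%) and higher in Indo (4.08% and 2.6%), and at or below it in the others. CKIN, MP and Acet were tested against the Injured 4 hr arrays. Indo and NS398 were tested as ratios over their vehicle pools, whose spread is not in the test. Shares of these 2 kinds of test cannot be compared between compounds.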

How the data were processed

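The authors deposited a table of log2 ratios, 1 column per 2-colour array of rat spinal cord RNA over a reference RNA. Their dyes, scanner, background correction and normalization: not given in the sources used here. Ratios were read as the first over the second RNA of each title. Gene symbols came from the platform annotation.

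Each array was centred on its median over 5324 probes, with repeated Gapdh spots averaged. Corrected ratios were residuals of a loess curve (span 0.4) on the Injured 4 hr mean ratio of each probe, then centred per source plate with at least 20 probes. That mean stands in for brightness, which was not given, and is part of the comparisons it corrects. limma 3.58.1 in R 4.3.3 fitted 1 coefficient per group over the 21 arrays, with empirical Bayes moderation. Probes with at least 2 values in each compared group were tested, 2-sided, and p-values were adjusted by Benjamini-Hochberg over all probes of each of 11 comparisons, with a threshold of 0.05. The scripts were tested on simulated data. Nothing in the labels says that replicates came from separate animals or cultures, so p-values measure the spread between these samples, which may be technical.

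The members and lists were chosen with earlier results of these data known. The rule for named genes took a panel of transporters of known function and, per comparison, up to 12 called probes in each direction by size. Exceptions are stated. Roles were assigned from textbook function after the files were seen. Alternatives were other scalings, missing-value filters, sample sets, blocks and omission of each array. Promoter sequences are RefSeq, assembly GRCr8.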

Additional observations from a re-analysis of the deposited data

Results flagged for a closer look

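The vitamin C transporter Slc23a2 was lower with NS398 than the mean of the other 4 treatments by the test of that difference, at -1.25 ± 0.33 (adjusted p = 0.0449, limma). It was the 1 member of 83 tested that passed in any of the 5 comparisons of this kind. Its probe lay at percentile 3.5 of the brightness stand-in. The 2 NS398 arrays that measured it, at -1.44 and -1.31, lay below all 11 arrays of the other treatments. The call was lost in 6 of 11 omissions of an array, without CKIN replicate 1 or 2, MP replicate 1 or 3, or Acet replicate 2 or 3, with a highest adjusted p of 0.0616. Its adjusted p was 0.0144 in corrected ratios, 0.0668 after scale normalization and 0.128 after quantile normalization. It was 0.0559 with the array set as a block, 0.0634 with the replicate block and 0.101 with only the compared groups in the fit. The NS398 arrays alone carried a DMSO pool, so compound and reference cannot be told apart.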

How the results depend on the processing

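Of 666 combinations of a called probe and an alternative, 387 kept the direction and the call, 244 kept only the direction and 35 turned the direction. Counts of solute carrier probes called moved as follows, with the cause not tested. For Injured 4 hr against Uninjured, where 23 were called, there were 64 in deposited ratios, 0 after quantile and 0 after scale normalization, 6 in corrected ratios, 43 with only the compared groups in the fit, 67 for Uninjured against the PBS pool, and 12 to 17 with 1 array left out. For CKIN, with 9, there were 62 in deposited ratios, 20 after scale normalization, 1 in corrected ratios, 18 with only the compared groups, 0 with the array set as a block, and 3 to 7 with 1 array left out. For MP and Acet, with 0 each, there were 96 and 94 in deposited ratios, 5 and 3 after scale normalization, and 21 and 30 against the PBS pool. With 1 array left out MP had 0 to 3, with 3 without MP replicate 2, and Acet had 0. For Indo, with 5, there were 2 in deposited ratios, 18 after quantile and 14 after scale normalization, 3 in corrected ratios, 1 with only the compared groups, and 3 to 4 with 1 array left out. For NS398, with 13, there were 40 in deposited ratios, 6 in corrected ratios, 2 with only the compared groups, 1 against the Injured 4 hr arrays (an alternative chosen after seeing the data, as was the same one for Indo), and 6 to 17 with 1 array left out, 6 without NS398 replicate 3 and 7 without NS398 replicate 2. Against the other 4 treatments CKIN, with 0, had 5 after quantile and 3 after scale normalization, 1 with the replicate block and 0 to 1 with 1 array left out. NS398, with 1, had 6 in deposited ratios, 2 after quantile normalization, 4 in corrected ratios, 0 with values required on all 3 arrays, with only the compared groups, with the replicate block and with the array set as a block, and 0 to 2 with 1 array left out. Directions turned in deposited ratios between Injured 4 hr and Uninjured for Slc5a11 (0.39), Slc20a1 (0.27), Slc16a1 (0.083), Slc17a7 (1.38), Slc2a1 (1.36), Slc1a1 (0.31), Slc14a1 (0.25), Slc18a3 (0.52), Slc3a2 (0.33) and Slc44a1 (0.28). They turned there after scale normalization for Slc20a1 (0.27), Slc32a1 (0.30), Slc25a4 (0.21), Slc3a2 (0.025), Slc25a3 (0.36) and Slc44a1 (0.18), and in corrected ratios for Slc3a2 (0.0089). With CKIN they turned in deposited ratios for Slc12a5 (0.48), Slc9a5 (0.25), Slc2a1 (0.18), Slc38a2 (0.45), Slc6a8 (0.93), Slc37a4 (0.52) and Slc25a3 (0.58), against the PBS pool for Slc12a5 (0.41), Slc6a8 (0.46) and Slc25a3 (0.48), and in corrected ratios for Slc6a8 (0.026) and Slc25a3 (0.15). Against the Injured 4 hr arrays they turned with Indo for Slc38a2 (-0.051) and with NS398 for Slc20a1 (-0.38), Slc2a5 (-0.031), Slc9a5 (-0.11), Slc2a1 (-0.13) and Slc25a3 (-0.93), and in deposited NS398 ratios for Slc2a5 (-0.050) and Slc13a1 (-0.057). Replicate numbers did not pair the arrays: the mean correlation of deviations was 0.0161 for arrays of the same number (-0.201 to 0.45 over 63 pairs) and -0.00802 for others, and 7 of 21 arrays correlated best with their own number. With the replicate block 23 solute carrier probes were called for Injured 4 hr against Uninjured, 10 for CKIN, 6 for Indo and 14 for NS398. Spot intensities were not used here, so signal over background could not be weighed for any value.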
